A study of Homo sapiens with 8 samples.

Results

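Cadherins are transmembrane proteins that bind each other across the gap between cells in the presence of calcium. Protocadherins form the largest group of genes among their relatives. The group described here holds every cadherin gene (CDH followed by a number) and protocadherin gene (PCDH followed by a number, or a member of the α, β and γ clusters) named in the gene table of the study, without PCDH11X and PCDH11Y. These are 87 of 38256 genes: 23 cadherins, 11 protocadherins that stand alone in the genome and 53 clustered protocadherins. The cadherins were 5 type I genes, 13 type II genes and 5 others, and the clusters held 15 α, 16 β and 22 γ genes.

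RNA was sequenced from A673/TR/shFEZF1 cells. A673 is an established Ewing sarcoma cell line that carries the fusion oncogene EWSR1-FLI1. All cells analysed here express the tetracycline repressor (TR) and carry a lentiviral shRNA directed against FEZF1, a zinc finger transcription factor of nervous system development, which doxycycline switches on. A polyclonal population and clones 3, 5 and 6 were each cultured without doxycycline (control) or with 1 µg/mL doxycycline for 72 h, giving 8 libraries in 4 pairs, to ask which genes depend on FEZF1. Each clone is a single line, each origin has 1 culture per treatment, and cells without the shRNA but with doxycycline were not analysed here, so an effect of doxycycline itself and an effect of the shRNA cannot be told apart.

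Type I cadherins such as E-cadherin (CDH1) and N-cadherin (CDH2) form adherens junctions and are held to the actin cytoskeleton by catenins. Type II cadherins lack the recognition motif that type I cadherins share and sort cells into tissues. Protocadherins have a different cytoplasmic part. In the α and γ clusters each variable exon has its own promoter and is spliced to constant exons that its cluster shares, while β genes are single exons. Neurons choose a small set of these promoters with the help of the insulator protein CTCF and cohesin, which gives each cell its own surface identity.

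Clustered promoters are known to share a conserved element, and a stretch common to the promoters of the 6 γ genes described below is printed here to show how alike they are. The sequences are RefSeq promoters (GRCh38.p14, plus strand of chromosome 5) from 250 bases before to 50 bases after each start, of which only bases upstream of the start are shown. Capitals mark CGCTGNNNNCCA, except in PCDHB2, where they mark CGCTG alone. The motif is a window of 12 bases with the most positions identical, 8 of 12, among the promoters of these 6 γ genes, so their match is given by its choice. The window starting at the next base has as many identical positions, because an a follows the motif in all 6. That window was not searched.
PCDHGA6, chr5:141373841-141373870: ctctaagcgtCGCTGTTGACCAacctgggc
PCDHGA7, chr5:141382655-141382684: ctcacagcgcCGCTGTTCACCAaccaggga
PCDHGA11, chr5:141420978-141421007: ctctaggcgcCGCTGCTCACCAatcaggga
PCDHGB1, chr5:141350031-141350060: ctctgggcgcCGCTGTCGACCAaaaggaag
PCDHGB5, chr5:141397869-141397898: ctctgggcgcCGCTGTTGGCCAaagtgcag
PCDHGC3, chr5:141475886-141475915: ctctgtgtgcCGCTGTCGGCCAatgaagac
PCDHA6, chr5:140827903-140827932: cgcatgatgtCGCTGTCTACCAtgaagtta
PCDHB2, chr5:141094550-141094579: cgcggggtggCGCTGcagccttagaagtag

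The γ element began between 40 (PCDHGA6) and 77 bases (PCDHGA7) upstream of the start. Promoters were given for 68 of the 87 members. CGCTGNNNNCCA, searched on both strands, was found in 13 of 20 γ promoters, 6 of 13 α promoters, 0 of 14 β promoters and 0 of 21 promoters outside the clusters, beside 2.1% of the promoters of all 27305 genes. Beside the 6 γ genes printed above, 7 of the 14 other γ promoters held it. The shorter CGCTG, which lies within the longer motif, was found in 20 of 20 γ, 9 of 13 α and 12 of 14 β promoters, in 16 of 21 promoters outside the clusters and in 51.7% of all promoters.

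FEZF1 itself, the target of the shRNA, was measured first. Its normalised level (CPM, reads per 1000000 of the scaled library) was 96.4, 70.5, 107 and 74.4 in the control cultures of the polyclonal population and clones 3, 5 and 6, in that order, and 60.6, 43, 60.8 and 36.4 with doxycycline. It fell in 4 of 4 pairs by 0.81 on the log2 scale (SE 0.07, adjusted p = 0.00595, edgeR quasi-likelihood test with origin as a block). Libraries held between 26719886 and 42422421 assigned reads and the clone 6 libraries were the shallowest. The Ewing sarcoma markers were present (CD99 between 801 and 2367 CPM), and 2 of the 6 were called higher with doxycycline. NR0B1 went from 63.1 ± 8.0 to 99.8 ± 3.82 CPM (SD, n = 4; adjusted p = 0.00746, edgeR with the block). NKX2-2 went from 64.7 ± 12.2 to 79.6 ± 13.8 CPM (adjusted p = 0.0414, edgeR). STEAP1 and PRKCB were also higher in 4 of 4 pairs and were not called (adjusted p = 0.16 and 0.0653, edgeR). DESeq2 with the same block, which called 14.9% of all genes, called PRKCB (adjusted p = 0.0114). CD99 was higher in 3 of 4 pairs and CCND1 lower in 3 of 4. The endothelial and leukocyte markers summed to at most 2.82 and 0.522 CPM in any library. Of the epithelial markers, only KRT18 was called, from 114 ± 40.4 to 159.5 ± 39.8 CPM (SD, n = 4; adjusted p = 0.0161, edgeR). EPCAM, KRT8 and CLDN4 were also higher in 4 of 4 pairs. Their means went from 0.499 to 1.22, 5.12 to 9.65 and 0.302 to 0.501 CPM (adjusted p = 0.0501, 0.122 and 0.203, edgeR). KRT19 was too low to be tested. The fibroblast markers, most of all the collagen genes COL1A1 and COL1A2, summed to 254.8 to 2986 CPM in the control libraries and 389.5 to 2842 CPM with doxycycline. This spread followed the origins. COL1A2 had a mean of 1599 CPM in clone 3, 816 in clone 6, 638 in the polyclonal population and 73.9 in clone 5. Against the polyclonal population its adjusted p was 0.000239 for clone 3 and 1.63e-05 for clone 5 (edgeR). DCN and LUM were instead lowest in clone 3. DCN had a mean of 3.13 CPM there, 10.6 in clone 5, 12.7 in clone 6 and 16.5 in the polyclonal population. LUM had 0.494 CPM in clone 3, 1.56 in clone 6, 1.88 in the polyclonal population and 2.21 in clone 5. For clone 3 against the polyclonal population their adjusted p was 0.000479 and 0.0094 (edgeR). As these are bulk samples, fewer cells of a type and less RNA per cell cannot be told apart, and the part of these markers in the results below was not tested.

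The most abundant members were PCDH7, CDH11 and γ genes, in an order that depends on how transcripts are linked to genes. By the mean count in the authors' table per kilobase of the longest linked transcript, PCDH7 (1652) and CDH11 (1119.8) were above every γ gene, of which PCDHGC3 was highest (881). The levels below count only the transcripts that could be linked to a gene. On their TPM scale, which is corrected for transcript length and allows a comparison between genes, the mean over the 8 libraries was highest for PCDHGC3 (62.7 TPM, range 45.6 to 89.1). It was followed by PCDH7, a protocadherin outside the clusters (58.8 TPM, 29.4 to 85.4), PCDHGB5 (43.3 TPM, 24.6 to 61.6) and PCDHGA11 (36.8 TPM, 19.9 to 56.6). These 4 ranges overlap. CDH24, a type II cadherin, had 25.9 TPM, and the β genes PCDHB2, PCDHB5 and PCDHB16 had 22.8, 22.2 and 13.9 TPM. CDH23, the cadherin of hair cell tip links, had 15.9 TPM, and PCDHA6 had 14.0 TPM. By the mean count per kilobase of the longest linked transcript CDH23 had 63.2 and rank 25. Its place in the order thus depends on which transcript length is taken. Of the type I cadherins, CDH2 had a mean level of 12.7 TPM, CDH4 2.10 TPM, CDH3 0.642 TPM and E-cadherin 0.0994 TPM. The 2 linked transcripts of CDH5, the endothelial cadherin, are listed at 0 in all 8 libraries, while its mean count in the authors' table was 2.44.

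Of the 87 members 76 passed the filter on low counts and were tested. Of the other 11, 1, CDH5, had no linked transcript with reads and the highest level of the rest in any library was 0.962 CPM. That was PCDH19, an X-linked protocadherin, with 0.962, 0.284, 0 and 0.764 CPM in the control libraries of the polyclonal population and clones 3, 5 and 6, and 0, 0.233, 0 and 0 CPM with doxycycline. Some transcripts could not be linked to a gene symbol. For 12 members outside the clusters the summed reads came to less than 80% of the mean in the authors' table. Among them were CDH5 (0%), CDH8 (4.95%), CDH11 (20.5%), PCDH19 (43.3%), PCDH7 (56.9%), PCDH17 (73.4%) and CDH6 (78.6%), so their levels are those of a part of their transcripts. All 53 clustered genes reached 80% or more.

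With doxycycline 10 members were lower and 0 were higher. These were 6 γ protocadherins (PCDHGA6, PCDHGA7, PCDHGA11, PCDHGB1, PCDHGB5 and PCDHGC3), the non-clustered protocadherins PCDH7, PCDH10 and PCDH17, and N-cadherin, CDH2. The test was the edgeR quasi-likelihood test over 15991 genes with origin as a block and a Benjamini-Hochberg adjusted p under 0.05. By this rule 7.62% of all genes tested were called and 3.9% were called lower, beside 10 of 76 members. An unadjusted p under 0.05 was reached by 20 of 76 members, 4 of them higher, beside 3971 of 15991 genes, 2020 of them higher. The 4 members were PCDHA13, PCDHAC1, PCDHB4 and PCDHGC5, named after their values were seen. Without the block, edgeR called 0 members and 0.00625% of all genes, 1 gene. There 7 members had an unadjusted p under 0.05, beside 1155 of 15991 genes. DESeq2 called 12 members with the block (14.9% of all genes) and 1, PCDHGA6, without it (1.57%), all of them lower. Leaving out the polyclonal pair, or the pair of clone 3, 5 or 6, left 4, 2, 3 and 2 members called in edgeR, PCDHGA6 and PCDH7 in each case, beside 4.44%, 2.89%, 1.09% and 1.4% of all genes. With curated transcripts only, 3 were called, beside 3.29% of all genes.

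**Figure D1:**
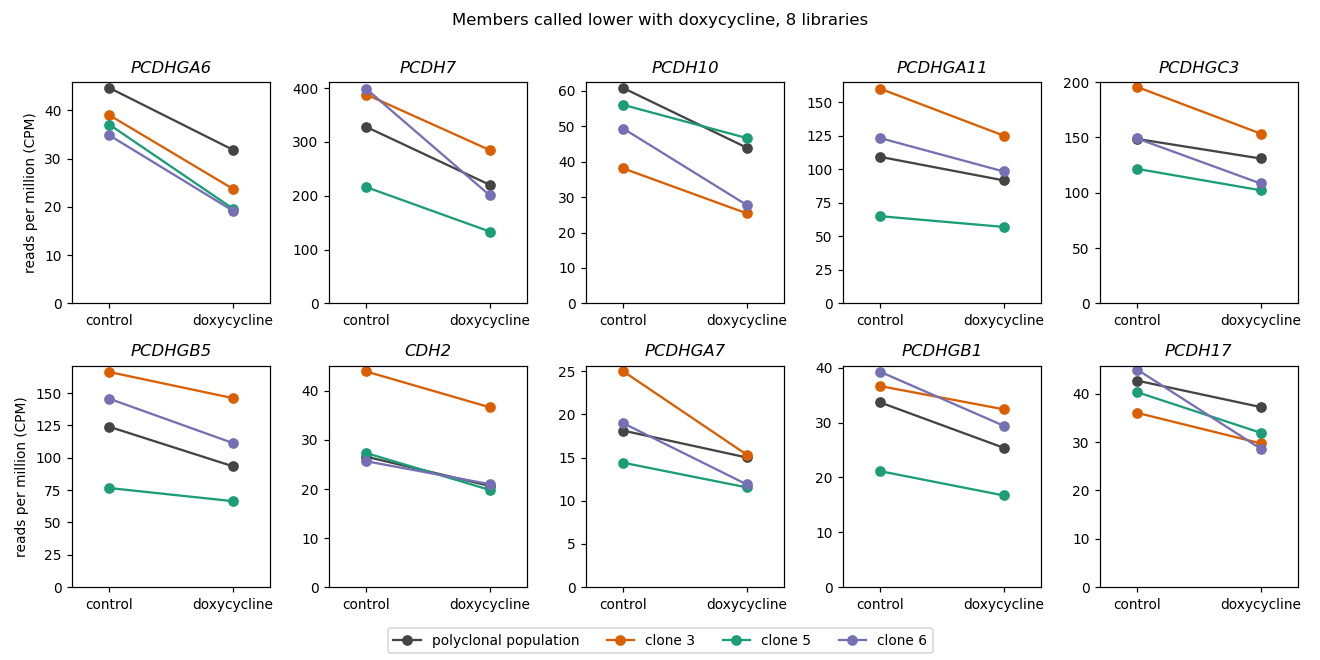
Normalised level (CPM, linear axis from 0) of the 10 members called lower with doxycycline, with 1 line per origin joining its control and doxycycline cultures. Every line goes down, and only in PCDHGA6 do the control and doxycycline libraries not overlap.

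PCDHGA6 had the largest change among the called members. Its level was 44.7, 39, 37.1 and 34.8 CPM in the control cultures of the polyclonal population and clones 3, 5 and 6 and 31.8, 23.7, 19.7 and 19.2 CPM with doxycycline. The lowest control library was above the highest doxycycline library. It fell by 0.74 on the log2 scale (SE 0.09, adjusted p = 0.00731, edgeR with the block; adjusted p = 0.278 without it).

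Of the other 5 γ genes called, all but PCDHGA7 also differed between origins (adjusted p under 0.05, edgeR F test of origin described below; PCDHGA7 adjusted p = 0.0544). PCDHGC3, a C-type γ gene, had 149, 196, 122 and 149 CPM in the control cultures, in the same order of origins, and 131, 153, 102 and 108 CPM with doxycycline. PCDHGB5 had 124, 166, 76.6 and 146 CPM against 93.5, 146, 66.5 and 111 CPM. PCDHGA11 had 109, 160.0, 65 and 123 CPM against 91.7, 125, 57 and 98.3 CPM. In these genes clone 3 was highest and clone 5 lowest under both treatments, so the groups overlapped although each pair moved down. Clone 3 was also highest and clone 5 lowest in COL1A2, while clone 3 was lowest in DCN and LUM. The part of these markers in these levels was not tested. PCDHGB1 had 33.7, 36.7, 21.2 and 39.3 CPM against 25.4, 32.4, 16.7 and 29.4 CPM. PCDHGA7 had 18.1, 25, 14.4 and 19 CPM against 15, 15.3, 11.6 and 11.9 CPM. Their log2 changes were -0.31 for PCDHGC3, -0.30 for PCDHGB5, -0.28 for PCDHGA11, -0.33 for PCDHGB1 and -0.49 for PCDHGA7 (SE between 0.05 and 0.11, adjusted p between 0.0255 and 0.0379, edgeR with the block).

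These 6 were the highest γ genes of the cluster, each with a mean of at least 16.3 CPM, while none of the other 16 was above 4.36 CPM. Together they held between 90.5% and 93.8% of the γ reads of a library. The summed level of the 6 was 478, 623, 336 and 511 CPM in the control cultures of the polyclonal population and clones 3, 5 and 6 and 388, 496, 274 and 379 CPM with doxycycline. It was lower in 4 of 4 pairs. Most reads of each of the 6 were assigned to its longest transcript, from 75.0% in PCDHGC3 to 99.0% in PCDHGB5. Between 45.1% and 61.3% of the 31-base words of a γ transcript are also found in transcripts of other genes (α: 48.4% to 74.6%; β: 6.1% to 58.2%), so a large part of these reads is shared out among the genes of a cluster by the quantification. The sum over the γ cluster, which does not depend on how they are shared within it, was 518, 664, 369 and 545 CPM in the control cultures and 425, 540.0, 302 and 407 CPM with doxycycline, with a log2 ratio between -0.42 and -0.28 in the 4 pairs.

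The same sums moved less in the other clusters. The α cluster summed to 153, 167, 152 and 151 CPM in the control cultures and 138, 170.5, 149.8 and 132 CPM with doxycycline. It was lower in 3 of 4 pairs, with clone 3 the exception. The β cluster summed to 230.4, 292, 203 and 234 CPM in the control cultures and 204, 299.5, 212 and 201 CPM with doxycycline, lower in 2 of 4 pairs. None of the 15 α and 16 β genes was called in edgeR. An unadjusted p under 0.05 was reached by 3 of each, beside 3971 of 15991 genes. DESeq2 with the block called 1 of the α and β genes, PCDHA6, beside 14.9% of all genes. PCDHA6, the highest α gene, had 41.7, 51.4, 36.5 and 47.4 CPM against 36.2, 44.3, 32.9 and 38 CPM (adjusted p = 0.0742, edgeR; adjusted p = 0.0335, DESeq2). PCDHB2, the highest β gene, had 55 ± 7.77 CPM in control and 54.9 ± 14.3 CPM with doxycycline (SD, n = 4). PCDHB5 had 47.2 ± 11 CPM against 41.2 ± 10.7 CPM and PCDHB16 39.1 ± 12.3 CPM against 35.1 ± 10.9 CPM. A difference in response between the clusters was not tested.

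Of the called members outside the clusters PCDH7 changed most. It had 328, 388, 216 and 398 CPM in the control cultures of the polyclonal population and clones 3, 5 and 6, and 220.2, 285, 133 and 201 CPM with doxycycline. The doxycycline value was below the control value of its own pair each time, but the control culture of clone 5 lay among the doxycycline libraries. The log2 change was -0.67 (SE 0.09, adjusted p = 0.00863, edgeR). All 3 of its matched transcripts were lower in 4 of 4 pairs, at 125 ± 43.2 against 68.5 ± 28, 129 ± 40.3 against 83.8 ± 41.2 and 78.1 ± 13.1 against 57.5 ± 17.3 CPM (SD, n = 4).

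PCDH10 and PCDH17 belong to the δ2 protocadherins, which recruit regulators of actin through their cytoplasmic tail. PCDH10 had 60.8, 38.1, 56.1 and 49.4 CPM in the control cultures and 44, 25.4, 46.7 and 27.8 CPM with doxycycline, a log2 change of -0.53 (SE 0.09, adjusted p = 0.0207, edgeR). PCDH17 had 42.7, 36, 40.3 and 45 CPM and 37.2, 29.7, 31.9 and 28.6 CPM, a log2 change of -0.36 (SE 0.09, adjusted p = 0.0463, edgeR). In both genes the groups overlapped, in PCDH17 by 1 doxycycline library, that of the polyclonal population. PCDH18, of the same subfamily, had 28.6 ± 2.62 CPM in control and 31.4 ± 3.61 CPM with doxycycline (SD, n = 4; adjusted p = 0.409, edgeR). PCDH8 had 4.06 ± 2.54 against 4.89 ± 2.71 CPM, PCDH9 2.0 ± 0.585 against 1.89 ± 0.759 CPM and PCDH1 0.487 ± 0.193 against 0.338 ± 0.115 CPM, and none of these passed the test.

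Among the cadherins only CDH2 was called by edgeR. N-cadherin had 26.6, 43.9, 27.3 and 25.7 CPM in the control cultures of the polyclonal population and clones 3, 5 and 6, and 20.6, 36.7, 19.8 and 21 CPM with doxycycline. Clone 3 stood above the other origins under both treatments, and within each treatment the other origins lay close together. The log2 change was -0.34 (SE 0.07, adjusted p = 0.0314, edgeR). CDH24 had 50.6, 70.0, 57.7 and 50.9 CPM against 44.8, 64.8, 46.2 and 34.3 CPM, lower in 4 of 4 pairs, and was called by DESeq2 with the block (adjusted p = 0.0184) and not by edgeR (adjusted p = 0.0781). CDH11, the osteoblast cadherin, had 51 ± 10.2 against 52.6 ± 11.3 CPM (SD, n = 4) and was higher in 3 of 4 pairs. CDH23 had 21.5 ± 5.39 against 25.2 ± 11.2 CPM.

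E-cadherin stayed between 0.0421 and 0.38 CPM in the 8 libraries, with a log2 change of -0.08 (SE 0.43). P-cadherin, CDH3, had 1.57 ± 0.597 CPM in control and 1.54 ± 0.918 CPM with doxycycline, and R-cadherin, CDH4, 8.61 ± 1.73 and 8.14 ± 1.66 CPM (SD, n = 4). T-cadherin, CDH13, which is anchored by a lipid and has no cytoplasmic part, had 0.715 ± 0.273 and 0.758 ± 0.421 CPM. CDH6, the kidney cadherin, had 0.81 ± 0.535 and 0.615 ± 0.36 CPM. None of these 5 passed the test.

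**Figure D2:**
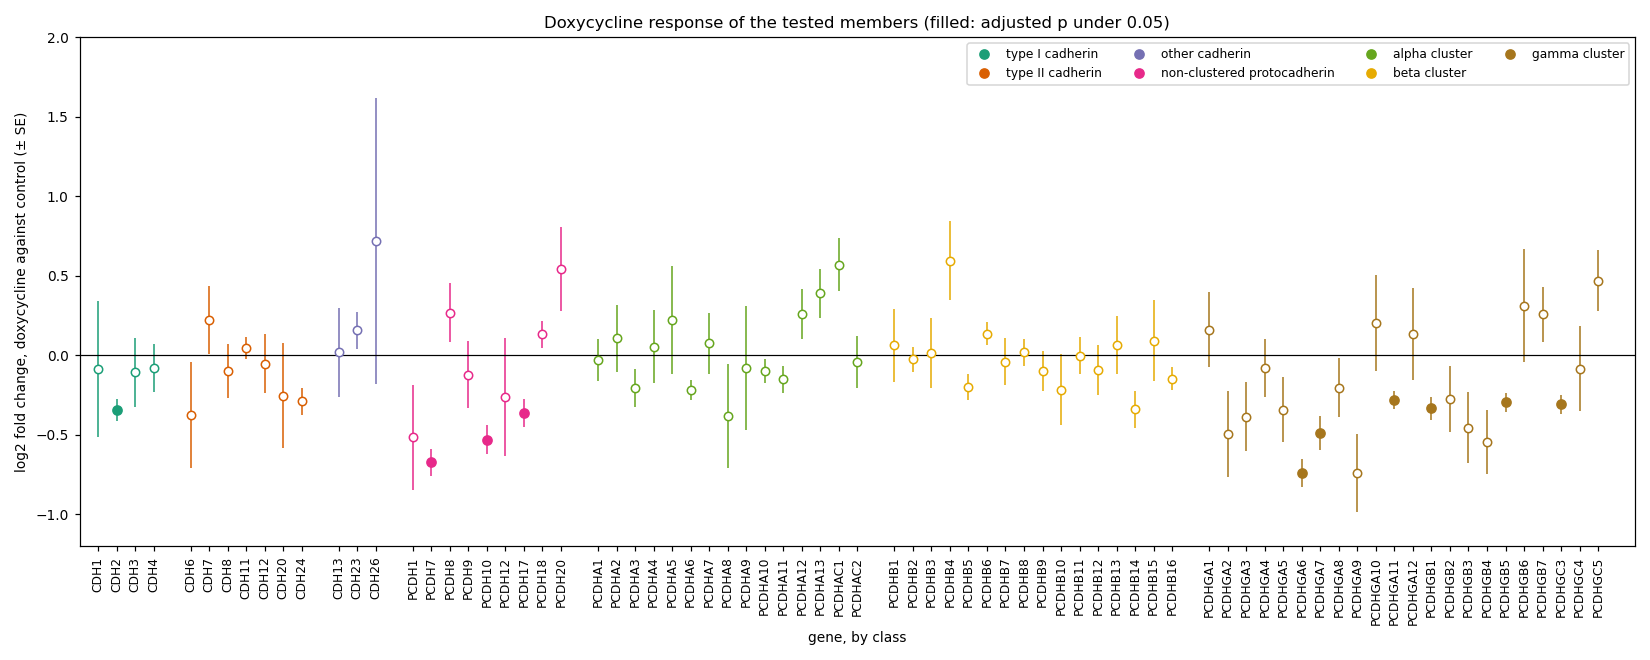
Log2 fold change of the 76 tested members, doxycycline against control, from the edgeR fit with origin as a block (bars: SE), grouped by class. The 10 filled points have an adjusted p under 0.05 and all lie below 0, between -0.74 and -0.28, while the 28 members above 0 are all open.

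Over the 76 members tested the median log2 change was -0.08, beside 0.0042 over all genes tested. By class the median was -0.29 over the 22 γ genes, -0.03 over the 15 α genes, -0.01 over the 16 β genes and -0.26 over 9 protocadherins outside the clusters. It was -0.10 over 4 type I genes, -0.10 over 7 type II genes and 0.16 over 3 other cadherins. Counting direction alone, 17 of the 76 members (22.4%) were lower in 4 of 4 pairs, beside 15.9% of all genes tested, and 6 (7.89%) were higher in 4 of 4 pairs, beside 17.3% of all genes. Of the 17, 9 were γ genes. The groups did not overlap at all in 2 members that were lower, PCDHGA6 and PCDHGA9 (2.3% of all genes tested), and in 1 that was higher, PCDHAC1 (2.65% of all genes). PCDHGA9 and PCDHAC1 were singled out after their values were seen. PCDHGA9 had 1.70, 2.68, 1.56 and 1.73 CPM in the control cultures of the polyclonal population and clones 3, 5 and 6 and 0.768, 1.22, 1.43 and 1.18 CPM with doxycycline (adjusted p = 0.11, edgeR). PCDHAC1, a C-type gene at the end of the α cluster, had 2.94, 3.31, 3.23 and 3.10 CPM and 3.72, 5.20, 6.07 and 3.996 CPM (adjusted p = 0.0818, edgeR).

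Calls depend on depth, and all 10 called members had a mean of at least 10 CPM. At that level 6 of 16 clustered genes and 4 of 8 other members were called, beside 10.5% of 9443 genes, 5.59% of them in the lower direction.

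Differences between the origins were called in 36 of 76 members by an F test of origin in the same fit, beside 39.4% of all genes tested. This test rests on the 2 cultures of each origin, 1 of them treated, so it concerns these 4 origins. Among the classes, 11 of 22 γ, 8 of 16 β and 7 of 15 α genes were called, and 10 of 23 members outside the clusters. The range of the mean log2 CPM of the origins had a median of 0.85 over the members, beside 0.56 over all genes tested. In genes of 10 CPM or more it was 0.62 in the 16 clustered genes and 0.71 in 8 other members, beside 0.40. Below that level the members were not uniformly wider. From 3 to 10 CPM the median range was 0.81 in 16 clustered genes and 0.96 in 3 other members, beside 0.79. From 1 to 3 CPM it was 1.11 in 15 and 0.61 in 5, beside 1.05. Under 1 CPM it was 0.95 in 6 and 1.56 in 7, beside 1.21. Leaving out an origin left 34 (polyclonal population), 29 (clone 3), 27 (clone 5) and 21 members (clone 6) called, beside 33.5%, 33.2%, 25.5% and 18% of all genes.

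**Figure D3:**
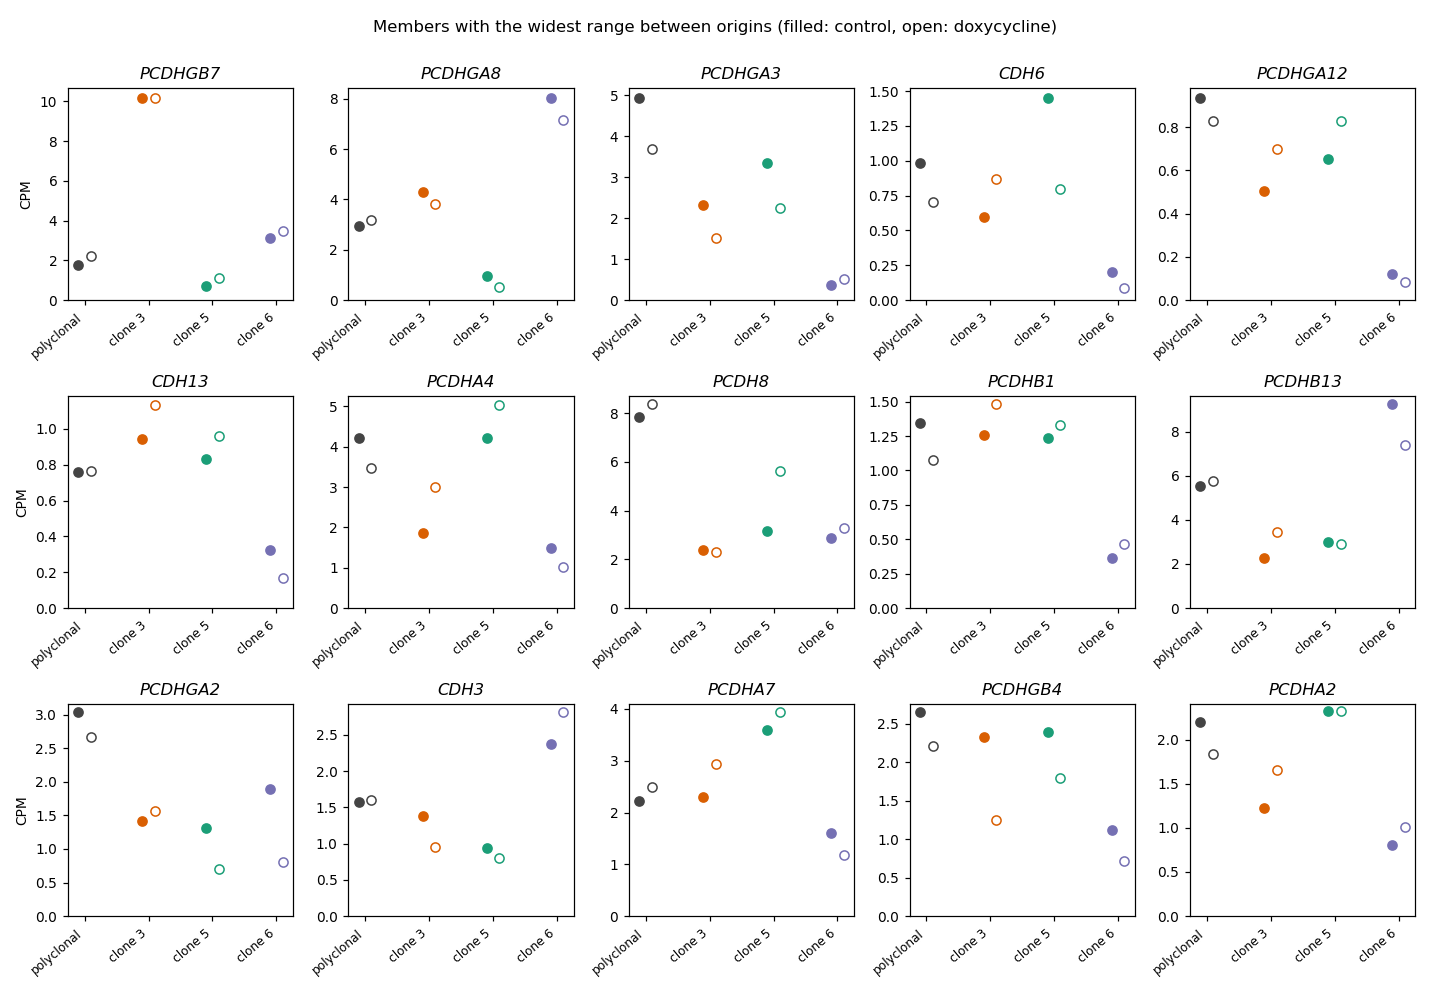
Level (CPM, linear axis from 0) in each of the 8 libraries for the 15 members with the widest range between origins among those called. Filled points are control and open points doxycycline libraries. In PCDHGB7 both clone 3 libraries are above 10 CPM and the other 6 are below 4 CPM, while the clone 5 libraries of PCDH8 (3.16 and 5.61 CPM) and the clone 6 libraries of PCDHGA2 (1.89 and 0.799 CPM) lie further apart.

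The widest ranges were those of 3 γ genes of low level. PCDHGB7 had 10.1 and 10.2 CPM in clone 3 (control and doxycycline, in that order here and below), 3.14 and 3.45 in clone 6, 1.77 and 2.24 in the polyclonal population and 0.689 and 1.13 in clone 5. Its origins did not overlap, and their range was 3.43 on the log2 scale (adjusted p = 0.000433, edgeR F test). PCDHGA8 had 8.04 and 7.15 CPM in clone 6, 4.28 and 3.84 in clone 3, 2.96 and 3.19 in the polyclonal population and 0.944 and 0.531 in clone 5, a range of 3.30 (adjusted p = 0.0011). PCDHGA3 had 4.94 and 3.68 CPM in the polyclonal population, 3.34 and 2.26 in clone 5, 2.33 and 1.51 in clone 3 and 0.362 and 0.505 in clone 6, a range of 3.13 (adjusted p = 0.00236). Thus a different origin was highest in each, clone 3, clone 6 and the polyclonal population, respectively. The starts of these genes lie 3.4 kb (PCDHGB7 to PCDHGA11), 5.3 kb (PCDHGA8 to PCDHGB5) and 6.3 kb (PCDHGA3 to PCDHGB1) before the start of one of the 6 high γ genes. Such distances are usual in the cluster. Its neighbouring starts lie 3.4 to 9.5 kb apart, except for 45.5 kb from PCDHGA12 to PCDHGC3.

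A further set was low in clone 6, whose libraries were also the shallowest. PCDHGA12 had 0.504 to 0.937 CPM in the other 6 libraries and 0.121 and 0.0841 CPM in clone 6, which rest on 3.25 and 1.59 estimated reads. CDH6 had 0.201 and 0.0841 CPM in clone 6 and 0.599 to 1.45 CPM elsewhere, and CDH13 0.322 and 0.168 CPM against 0.759 to 1.13 CPM. PCDHB1 had 0.362 and 0.463 CPM in clone 6 and 1.07 to 1.48 CPM elsewhere. The ranges of these 4 genes did not overlap those of the other origins. PCDHA4 (1.49 and 1.01 CPM), PCDHA2 (0.804 and 1.01), PCDHA7 (1.61 and 1.18) and PCDHGB4 (1.13 and 0.715) were also lowest in clone 6.

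Other members were set apart in another origin. PCDH8 was highest in the polyclonal population, with 7.85 and 8.38 CPM against 2.30 to 5.61 CPM in the clones. PCDHGA2 was highest there as well, with 3.04 and 2.67 CPM against 0.697 to 1.89 CPM. PCDHB13 was highest in clone 6, with 9.25 and 7.40 CPM, followed by the polyclonal population with 5.52 and 5.74 CPM, and lay between 2.27 and 3.46 CPM in clones 3 and 5. CDH3 was highest in clone 6 as well, with 2.37 and 2.82 CPM against 0.797 to 1.60 CPM.

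**Figure D4:**
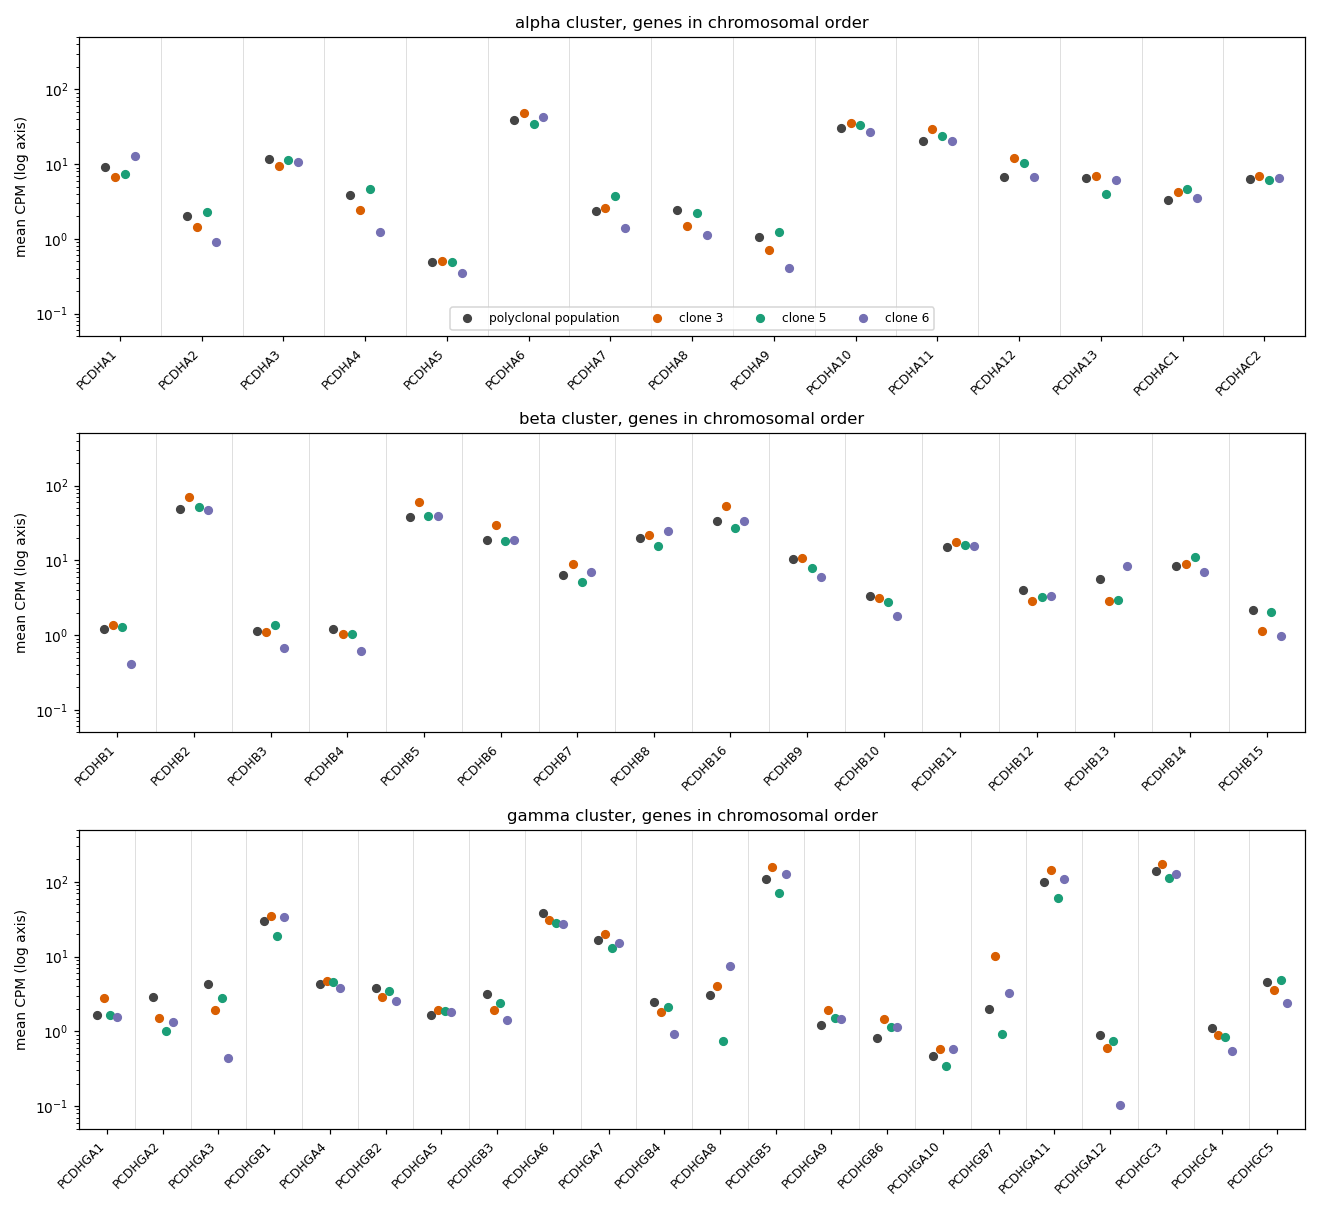
Mean level of each clustered gene in the 4 origins (CPM, log axis; each point is the mean of the control and doxycycline library), in chromosomal order. The high genes of a cluster are the same in every origin, and the points of PCDHGA3, PCDHGA8, PCDHGB7 and PCDHGA12 spread most.

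Each clone was also set against the polyclonal population. In clone 3, 12 members were called higher (8.35% of all genes) and 5 lower (7.31% of all genes). The 12 were CDH2, CDH24, PCDHA11, PCDHA12, PCDHB2, PCDHB5, PCDHB6, PCDHB16, PCDHGA11, PCDHGB5, PCDHGB7 and PCDHGC3, and their log2 differences ran from 0.31 in PCDHGC3 to 0.86 in PCDHA12, apart from 2.35 in PCDHGB7. The 5 lower were CDH23, PCDH8, PCDH10, PCDHB13 and PCDHGA3.

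In clone 5, 6 members were called lower (4.17% of all genes) and 0 higher (2.52% of all genes). In either direction 22 of 76 members had an unadjusted p under 0.05, beside 3793 of 15991 genes (edgeR). The 6 called lower were PCDH7 and the γ genes PCDHGA8, PCDHGA11, PCDHGB1, PCDHGB5 and PCDHGB7. PCDHGA11, for one, had 61.0 CPM on average in clone 5 and 100.4 CPM in the polyclonal population.

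In clone 6, 14 members were called lower (9.47% of all genes) and 1, PCDHGA8, higher (8.92% of all genes). Of the 14, 6 were γ genes, among them PCDHGA6, which had 27.0 CPM on average in clone 6 and 38.2 CPM in the polyclonal population. PCDH8, PCDH10 and PCDHGA3 were lower than in the polyclonal population in both clone 3 and clone 6, which are compared with the same polyclonal libraries.

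The same genes led each cluster in every library: PCDHA6, PCDHA10 and PCDHA11 among α genes, PCDHB2, PCDHB5 and PCDHB16 among β genes and the 6 called genes among γ genes. PCDHA6 took 22.0% to 31.3% of the α reads, PCDHB2 21.4% to 25.4% of the β reads, and PCDHGC3 26.6% to 33.8% of the γ reads. PCDHGB7, in contrast, took 0.187% to 1.88% and PCDHGA8 0.176% to 1.76% of the γ reads.

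Partners and regulators of cadherins were read from lists of 51 genes, of which 37 were tested. With the block, 6 were called, 5 lower and 1 higher (7.62% of all genes in either direction), and without it 0. With the block 15 of the 37 had an unadjusted p under 0.05, beside 3971 of 15991 genes. None of 7 tested catenins was called in edgeR, and 1, CTNNA1, was called higher by DESeq2 with the block (adjusted p = 0.0207). That fit called 14.9% of all genes. Only 1 of 7 desmosomal cadherins was tested and it was not called. Of 13 tested genes of the wider cadherin superfamily 2 were called in edgeR, both lower. DESeq2 with the block also called FAT4, lower (adjusted p = 0.00435). CELSR2, a seven-pass cadherin of planar cell polarity, went from 92.7 ± 15.8 to 71.5 ± 21.2 CPM (SD, n = 4; adjusted p = 0.0241, edgeR), and CLSTN1, a calsyntenin, from 209.7 ± 34.5 to 162 ± 27.8 CPM (adjusted p = 0.0212).

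Of 11 factors that take part in protocadherin promoter choice 2 were called in edgeR, CTCF and SMC1A, both lower. DESeq2 with the block called 4, beside 14.9% of all genes. It added STAG1, lower (adjusted p = 0.0151), and DNMT3B, higher (adjusted p = 0.0322). DNMT3B went from 4.68 ± 3.37 to 7.15 ± 3.70 CPM (SD, n = 4). CTCF had 70.7, 68.4, 99.4 and 68.2 CPM in the control cultures of the polyclonal population and clones 3, 5 and 6, and 55.9, 62, 81.3 and 55.1 CPM with doxycycline (adjusted p = 0.0384, edgeR). SMC1A, a cohesin subunit, went from 483 ± 84.3 to 413 ± 73.4 CPM (SD, n = 4; adjusted p = 0.0485). Of 5 transcriptional repressors of cadherin genes, ZEB2 fell from 208 ± 31.4 to 165 ± 18.4 CPM (adjusted p = 0.0196) and TWIST1 rose from 42.5 ± 3.73 to 53.4 ± 6.82 CPM (adjusted p = 0.0372, edgeR). ZEB1 was called higher by DESeq2 with the block (adjusted p = 0.0224) and not by edgeR (adjusted p = 0.0761).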

How the data were processed

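RNA of 8 cultures was sequenced from poly(A) RNA with paired reads. Salmon was run by the authors against RefSeq transcripts of GRCh38, and the estimated counts and TPM of 158867 transcripts were deposited per library. Strand setting is not given in the sources used here. The deposited DESeq2 (2.11.40.6) table gave the gene symbols and, as a signal, the mean normalized count over all libraries; its fold changes and p-values were not used. Transcripts were matched to symbols with a RefSeq table (72.6% of transcripts, 89.9% to 91.1% of reads), and estimated counts were summed per gene and rounded. The main fit was edgeR 4.0.16 (R 4.3.3, quasi-likelihood test, filterByExpr, TMM, Benjamini-Hochberg at 0.05 over all genes) with origin as a block. TPM was used for levels only. Log2 CPM had a prior count of 2. Fits were tested on simulated data.

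Controls and doxycycline cultures of 1 origin are the same cells. Deviations from the group means correlated between 0.406 and 0.590 within an origin and between -0.395 and 0.179 across origins, so the pairing was kept. Nothing says that an origin was cultured more than once, so p-values measure the spread between these cultures.

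Alternatives were no block, DESeq2 1.42.0 with and without it, its size factors, other filters, curated transcripts and leaving out each pair. Named genes are members called with doxycycline, the 10 highest per length, the 15 called between origins with the widest range, 16 textbook members, FEZF1 and called genes of the lists. Members and lists were chosen with earlier results of these data known. The promoter motif was derived from the promoters of the called γ genes after the calls were known. Shared 31-base words were counted in GENCODE release 44.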

Additional observations from a re-analysis of the deposited data

Results flagged for a closer look

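Groups of 4 libraries of named genes were screened with Dixon's 95% limit. Of 90 unselected and independent groups about 4.5 would pass it by chance. Some genes were named for a wide range between origins, and both treatments hold the same 4 origins, so 4.5 is no fair measure here. In the 90 groups 11 values lay further from the rest than the limit. Some were a library of clone 3 that stood above the others: CDH2 with 43.9 CPM in control (others 25.7 to 27.3) and 36.7 with doxycycline (others 19.8 to 21.0), PCDHB2 with 66.6 in control (others 49.98 to 51.8), PCDHB16 with 51.4 with doxycycline (others 27.7 to 31.2) and PCDH19 with 0.233 with doxycycline (others 0). In clone 6, PCDHB1 had 0.362 CPM in control (others 1.23 to 1.34), TWIST1 36.9 in control (others 44 to 44.6) and CDH1 0.0421 with doxycycline (others 0.320 to 0.338). In clone 5, CTCF had 99.4 CPM in control (others 68.2 to 70.7) and PCDH1 0.166 with doxycycline (others 0.379 to 0.407). PCDH8 had 7.85 CPM in the control culture of the polyclonal population (others 2.39 to 3.16).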

How the results depend on the processing

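The count of members called with doxycycline was 10 with the replicate block, 0 without it in edgeR, 1 in DESeq2 without it, 3 with curated transcripts only and 2 to 4 when a pair was left out. Members called between origins were 36, and 21 to 34 when an origin was left out. Genes of the partner and regulator lists called were 6 with the block, 0 without it and 11 in DESeq2 with it. The shares of all genes called were 7.62%, 0.00625% and 14.9%, in that order. The log2 change of FEZF1 was -0.81 with the block, -0.80 without it (adjusted p = 0.29, edgeR) and -0.86 to -0.74 when a pair was left out. The 10 called members kept their direction under all 11 alternatives. PCDHGA6 stayed past the threshold in 10 of them, PCDH7 in 9 and each of the other called members in only 4 or 5. Of 398 values of single members under alternatives 322 kept their direction and their side of the threshold, many of them in members that were not called. The 55 that were no longer past it were all in the 10 called members. Another 3 came past it, and 18 changed direction, the last in members that were not called. These were PCDHB13 (-0.038 without the block and -0.048 in DESeq2 without it), CDH13 (-0.042 in DESeq2 with the block) and PCDH9 (0.083 with curated transcripts). When a pair was left out, log2 changes spanned 0 in PCDHB2 (-0.097 to 0.034), CDH13 (-0.085 to 0.162), CDH3 (-0.242 to 0.029), CDH4 (-0.231 to 0.040), PCDHA2 (-0.0060 to 0.238), PCDHA4 (-0.158 to 0.209), PCDHA7 (-0.023 to 0.214), PCDHB1 (-0.0058 to 0.209), PCDHB13 (-0.105 to 0.202), CDH1 (-0.094 to 0.116) and PCDH9 (-0.253 to 0.024). The cause was not tested. Fewer reads in clone 6 limit the members under 1 CPM.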
